A study of Homo sapiens with 14 samples.

Results

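Tandem 3′ splice sites that lie exactly 3 bp apart were examined in a line of human embryonic kidney origin, HEK293T, that did or did not carry the SF3B1-K700E mutation at its endogenous locus. They were taken from the table of splice events as alternative 3′ splice site events whose long and short exon forms start 3 bp apart and whose mean of the authors' average junction reads in WT and MT libraries was at least 10. This gave 648 events of 7199 alternative 3′ splice site events and 114349 events of all types, and another 320 events of the same spacing were under the read minimum. The event just above it, in GRIP1, had 10.1 mean reads with levels of 0.809, 0.329 and 0.329 in the WT and 0.662, 0.710 and 0.815 in MT. The event just under it, in SEC31A, had 9.92 mean reads with levels of 0.830, 0.887 and 0.907 in the WT and 1.0 in each MT library. The 648 events used 612 different pairs of sites in 568 genes.

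RNA-Seq gave 3 WT libraries (HEK293T with unmutated SF3B1, labelled SF3B1 K700K) and 3 MT libraries (the isogenic line with SF3B1-K700E), and no treatment, time or clone number is stated for either. DRIP-seq libraries of Nalm-6 cells in the same series hold no splice junctions and were not used. The table lists reads and levels of 6 MT libraries. Only 3 of these, the entries 1, 2 and 6, have a level column of their own. Levels of these 3 were compared here, and the other 3 listed were not used. Which labelled MT sample each column belongs to is thus not settled. The authors' average of MT reads took values such as 3624.17 in RPS16, which a mean of 3 whole counts cannot give. It thus appears to cover all 6 listed libraries, so mean reads here may include MT libraries whose levels were not compared. Nothing in the labels says that the libraries came from separate cultures, so p-values rest on a spread between libraries that may be technical. The tests used here also draw the spread of each event toward that of all events with similar reads. A p-value thus does not reflect the libraries of its own event alone. The table holds splice events and no gene expression, so neither the K700E allele nor the cell line could be checked in it.

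An intron ends with AG, and when the letters AG stand a second time 3 bases further on, the spliceosome can cut after either. Such sites are known as tandem acceptors or NAGNAG sites, and within a coding region the choice adds or removes 3 bases without a shift of the reading frame. SF3B1 is the largest subunit of SF3b, the part of the U2 snRNP that holds the branch point and so takes part in choosing the 3′ splice site; mutations at K700 are known for use of cryptic AGs upstream of the usual site. The value reported for each tandem site is the inclusion level, the share of junction reads, corrected for the length of each form, that used the upstream AG and so kept the 3 extra bases in the exon. A level of 1 means upstream AG only and a level of 0 means downstream AG only.

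Sequences of the sites that the results turn on are given below from hg38, read 5′ to 3′ along the transcript, with the 6 bases of the tandem in capitals: the first 3 end at the upstream cut and the last 3 at the downstream cut. The first 3 had the lowest differences between MT and WT among sites with at least 50 mean reads and no overlap of the libraries, the fourth is in a subunit of the SF3B1 complex, the next 3 had the highest differences by the same rule, and the remaining 7 show the kinds of letters found among the sites with most reads.
IGF1R, chr15:98929535-98929564, plus strand: tcatttcctcctctttgctgCAGCAGgata
SUN1, chr7:852787-852816, plus strand: gtgtggtggctcttctctttTAGCAGgtct
TJAP1, chr6:43498952-43498981, plus strand: cctgcctccttcttgcttctCAGCAGgcgg
SF3B2, chr11:66055512-66055541, plus strand: atgaacttgttttcttttttAAGCAGggag
TBC1D16, chr17:79950572-79950601, minus strand: tgcccagttttcctcccgtcCAGCAGgtcg
CTDSP1, chr2:218402088-218402117, plus strand: agccagccccgccctccctaCAGCAGaccc
HIF1A, chr14:61720356-61720385, plus strand: gtgtttttcttgttgttgttAAGTAGgata
RPS16, chr19:39435702-39435731, minus strand: cctgtttctcttgtatcttaCAGAAGacag
PCBP2, chr12:53468754-53468783, plus strand: gcttgctctcttctgtctttTAGCAGgttt
NAP1L1, chr12:76056155-76056184, minus strand: atgtttgctgtcacttaatcAAGGAGgaat
MYL6, chr12:56158658-56158687, plus strand: tgaccacttccctcttctctGAGCAGtgtg
PTMA, chr2:231711864-231711893, plus strand: gacatggcctgttttctgtcGAGGAGaatg
GNAS, chr20:58903505-58903534, plus strand: ttcttttcttttcaatcccaCTGCAGtgag
CNBP, chr3:129171274-129171303, minus strand: cctgtttcttttccttattgTTGAAGcctg

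The tandem sites were used from both AGs in most cases. The mean WT level was between 0.1 and 0.9 at 433 of the 612 pairs, or 70.8%, over 0.9 at 144 and under 0.1 at 35. The upstream AG took most of the WT reads at 400 pairs, or 65.4%. Counted by events, 68.4% of the 642 tandem events that varied between libraries had a mean level of 0.1 to 0.9, beside 27.1% of all 83581 events tested. The other 6 events, in FMNL3, PIP5K1A, ZNF84, ATXN3 and NAP1L1 (2 events), had a level of 1.0 in every library and entered no test. Their total junction reads over the 6 libraries were 59 to 253, and a count of 0 for the downstream AG allows a share of up to 5.08% at the shallowest and 1.19% at the deepest.

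The letters before each AG went with the level. In the symbols used here H is A, C or T. The 606 events with H before both AGs (HAGHAG) had a median level of 0.706 in WT and 0.685 in MT, and 403 of them had a WT level above 0.5. Within these events the difference, MT minus WT, had a median of 0.002, so the 2 medians do not show a fall in MT. The 19 HAGGAG events, with G before the downstream AG, had a median of 0.992 in WT and 0.995 in MT. The 10 GAGHAG events, with G before the upstream AG, had a median of 0.0828 in WT and 0.0723 in MT. These are medians over sites, which are not replicates, and no test was made of them.

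Over all events with AG at both sites, the median level also went in order of the base before each AG. By the base before the upstream AG, the median WT level was 0.777 for T (189 events), 0.731 for C (335), 0.453 for A (101) and 0.105 for G (11). By the base before the downstream AG, it was 0.611 for C (449), 0.731 for T (62), 0.924 for A (105) and 0.992 for G (20). C and T before the upstream AG were close together in this order and their quartile ranges, 0.447 to 0.927 and 0.552 to 0.925, overlapped almost fully. With the downstream letters held, the WT median for T was above that for C before CAG, TAG and GAG. Before AAG it was below, at 0.938 for T and 0.956 for C. The same letters could still give any level: the 246 events of CAG followed by CAG, like IGF1R, TJAP1, TBC1D16 and CTDSP1, ran from 0.00867 to 1.0 with a median of 0.622 in WT and 0.633 in MT. CAG followed by AAG, like RPS16, had a WT median of 0.956 over 55 events, and AAG followed by CAG, like the SF3B2 site shown, had 0.358 over 68 events. In the plot of levels by base, MT medians lay close to the WT medians for every combination with at least 20 events.

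**Figure D1:**
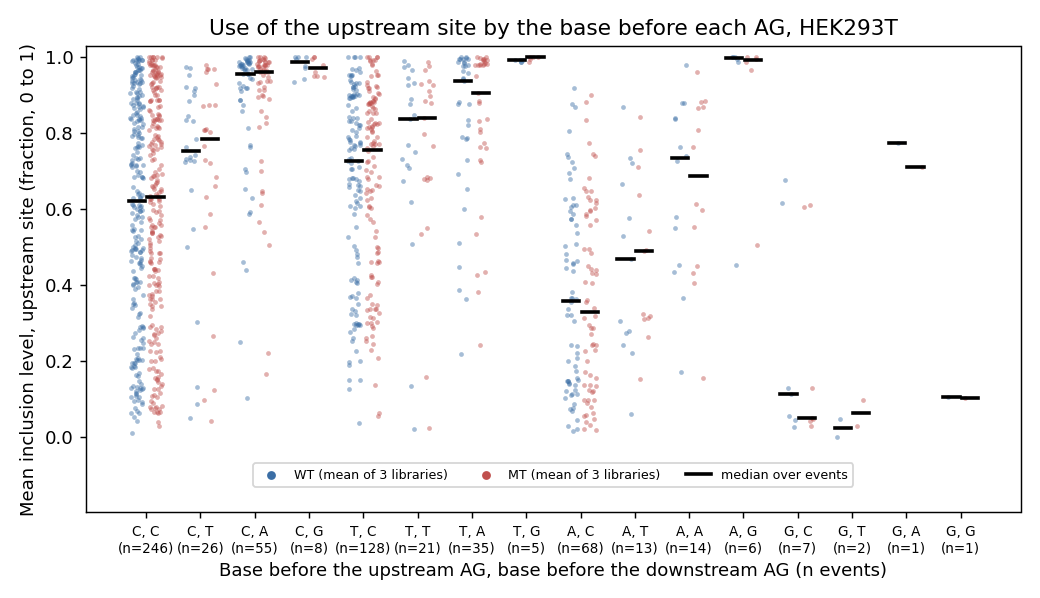
Mean inclusion level (fraction of reads that used the upstream AG) of each event by the base before the upstream and the downstream AG, in WT (blue) and MT (red), each point the mean of 3 libraries and each bar the median over events. Medians were above 0.9 in WT and MT where C or T stood before the upstream AG and A or G before the downstream AG, and the 7 events with G before the upstream and C before the downstream AG had a median of 0.111 in WT and 0.0483 in MT; events without AG at both sites are not drawn.

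AG stood at both sites in 601 of the 612 pairs. The 20 bases before the tandem held a median of 75% pyrimidines, and over the 601 pairs the pyrimidine share had a Spearman rho of 0.017 with the WT level and −0.067 with the difference between MT and WT. These are descriptions across sites that share libraries. Another AG within the 57 bases before the tandem was present in 533 pairs, or 88.7%, with a median of 26 bases between it and the tandem, and at only 10 pairs did it lie within 10 bases.

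The other 11 pairs lacked AG at one or both cuts, and 3 of them, in 2 genes, had TG at the upstream cut. GNAS encodes the alpha subunit of the stimulatory G protein, and its exon 4 follows CTGCAG. Reads that joined its exon 3 to exon 4 gave upstream levels of 0.149, 0.175 and 0.173 in the WT and 0.187, 0.184 and 0.192 in MT, at 907 mean reads. All 3 MT libraries were above all 3 WT libraries, by 0.022 on average (limma adjusted p = 0.856). CNBP, a zinc finger protein that binds single-stranded nucleic acids, has TTG, TTG and AAG in a row, which gave a chain of 2 pairs. Its pair TTGAAG had levels of 0.329, 0.248 and 0.307 in the WT and 0.306, 0.277 and 0.335 in MT, and the pair one step upstream, TTGTTG, had 0.120, 0.113 and 0.125 in WT and 0.106, 0.127 and 0.088 in MT. In both pairs the WT and MT libraries overlapped. RPS24, a protein of the small ribosomal subunit, with ATTCAG, had upstream levels of 0.013, 0.002 and 0.003 in the WT and 0.013, 0.005 and 0.002 in MT, at 2515 mean reads. The upstream cut of RPS24 was thus close to 0 in each library.

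By GENCODE 44, 572 of the pairs stood in coding sequence of at least 1 transcript. Of the others, 29 stood at exons of a 5′ UTR and 2 at exons of a 3′ UTR. Another 8 stood only in transcripts not typed as protein coding, and 1 was not annotated. GENCODE had a transcript for each AG of 602 pairs. The MANE Select transcript, the standard transcript of a gene, used the upstream AG in 407 pairs, which had a median WT level of 0.817, and the downstream AG in 180 pairs, which had a median of 0.237. Most WT reads followed the MANE choice in 356 of those 407 pairs (87.5%) and in 153 of those 180 (85.0%). MT medians of the same pairs were 0.818 and 0.262.

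Where the upstream AG is used, the bases of the second trinucleotide enter the exon, and TAG there is a stop codon when the reading frame begins at the cut. Of 201 coding pairs whose exon starts with a full codon, 6 had TAG as the added bases (2.99%), beside 16 of 104 pairs (15.4%) and 26 of 242 pairs (10.7%) in the other reading frames. This is a count of letters in the reference, without a test. Mean WT levels of the 6 were 0.0187 in ADAM15, 0.045 in ERCC2, 0.048 in TIMM44, 0.0847 in DPH7, 0.134 in MKLN1 and 0.966 in TEX10. TEX10 stood apart from the other 5, and its MANE transcript starts translation within that exon, downstream of both cuts. The MT means of these sites were 0.023, 0.0963, 0.042, 0.095, 0.156 and 0.967 in the same order.

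To determine whether SF3B1-K700E moved the choice between AGs, WT and MT levels were compared. No tandem event was called: 0 of 642 had a limma adjusted p under 0.05 with a difference above 0.1, beside 26 of all 83581 events tested (0.0311%). At an unadjusted p under 0.05 there were 8, or 1.25% of the members, beside 4.47% of all events. The number at this p moved with the settings of the fit, as given at the end. A quasi-binomial test on the junction reads of the 560 members with intact read lists also called 0, beside 0.0735% of all events it tested, with 25 members (4.46%) at an unadjusted p under 0.05 beside 6.54% of all events. The lowest adjusted p over the members was 0.856 by limma and 0.507 by the quasi-binomial test. A p that misses the threshold does not show that levels were equal, and the sizes of the differences are given below.

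The median level over the 612 pairs was 0.685, 0.688 and 0.687 in the WT libraries and 0.688, 0.662 and 0.683 in the MT libraries. The median difference, MT minus WT, was 0.002 over the 642 tested members and −0.002 over all events tested. Differences of 95% of the members lay between −0.123 and 0.138. The range was narrower at members with more reads. Of 337 members with at least 50 mean reads, 84.9% differed by less than 0.05 and 8 by more than 0.1, and of 305 members under 50 reads, 48.9% differed by less than 0.05 and 61 by more than 0.1. Together 69 members, 36 higher and 33 lower in MT, passed a difference of 0.1. They were 10.7% of the members, beside 5.8% of all events. At alternative 3′ sites 4 to 9, 10 to 30 and over 30 bp apart the share was 3.48%, 10.7% and 8.46%.

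**Figure D2:**
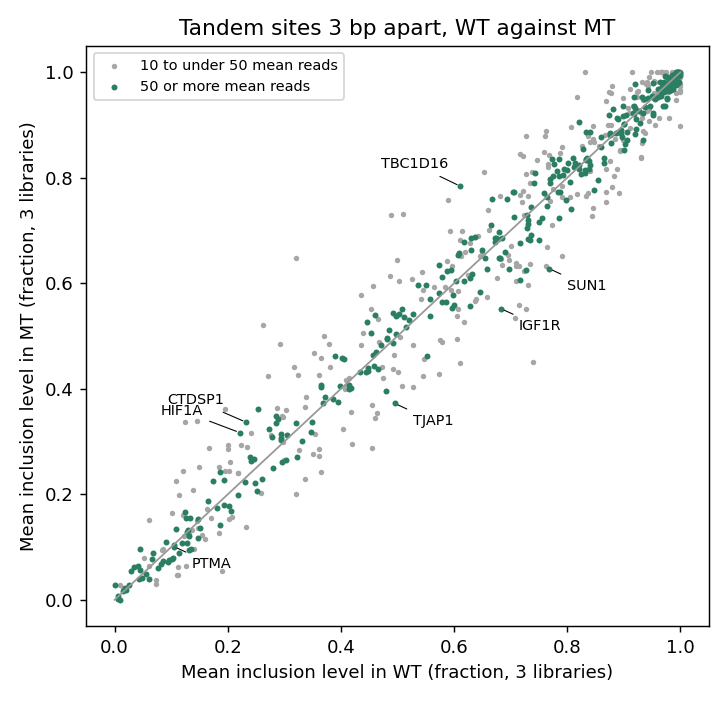
Mean inclusion level in MT against mean level in WT for the 648 tandem events, each mean over 3 libraries, with the diagonal of equal levels; green points had at least 50 mean reads and grey points fewer. The points follow the diagonal with a median difference of 0.002, and named genes are examples described in the text.

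Mean reads per member had a median of 52.8 and ranged from 10.1 to 5839, beside a median of 82.4 for all tested events. Junction reads summed over the 566 members with intact lists were 31400 to 38452 in WT and 27305 to 41301 in MT libraries. The 95% Wilson interval of a level in 1 library reached a median of 0.105 to either side, which covers counting error only. For members at levels of 0.1 to 0.9 the ratio of the variance between libraries to that of counting error had a median over events of 1.08. For all tested events in that range the median ratio was 1.71, and the sets were not matched for reads. With so few libraries, counting error alone gives a median ratio below 1, so 1.08 does not mean that the libraries varied by counting error alone.

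**Figure D3:**
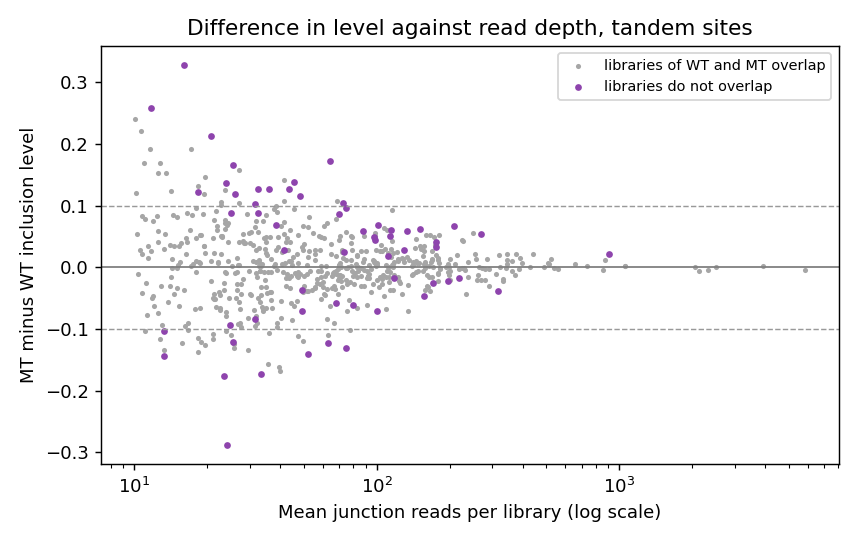
Difference in inclusion level, MT minus WT, of the 642 tested tandem events against mean junction reads per library on a log scale; purple points are events whose 3 WT and 3 MT libraries did not overlap, and dashed lines mark differences of 0.1. The differences narrow with depth: 61 events under 50 reads and 8 with 50 or more passed 0.1.

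Libraries of WT and MT did not overlap at some members. MT was higher at 37, or 5.76% of the members, beside 2.32% of all events tested, and lower at 22, or 3.43%, beside 3.15%. Restricted to mean levels of 0.1 to 0.9, a comparison added after the data were seen, MT was higher at 32 of 439 members (7.29%, beside 3.94% of all events in that range) and lower at 15 (3.42%, beside 4.64%). Of alternative 3′ sites at other spacings, 3.25% of 431 events 4 to 9 bp apart, 10.3% of 997 events 10 to 30 bp apart and 3.08% of 3251 events over 30 bp apart were higher in MT without overlap, and 3.71%, 3.41% and 5.20% were lower. Limma called 1 event 4 to 9 bp apart and 4 events 10 to 30 bp apart, all higher in MT, and 7 events over 30 bp apart, all lower in MT. The differences between these spacings were not tested.

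The 5 highest differences among members with at least 50 reads and no overlap were in TBC1D16, CTDSP1, HIF1A, PBRM1 and RIOX2, none of which passed the test (each with a limma adjusted p of 0.856). TBC1D16, a GTPase-activating protein for Rab proteins, had levels at exon 6 of 0.614, 0.694 and 0.526 in the WT and 0.759, 0.842 and 0.751 in MT. The MT libraries were all above the WT libraries, which themselves ranged widely, and the means were 0.611 ± 0.084 and 0.784 ± 0.050 (SD, n = 3 each), a difference of 0.173. CTDSP1, a phosphatase that acts on the tail of RNA polymerase II, had 0.255, 0.273 and 0.170 at exon 3 in WT and 0.368, 0.302 and 0.340 in MT. Here the downstream AG took most reads in every library, and the difference was 0.104.

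HIF1A, the oxygen-regulated subunit of hypoxia-inducible factor, had 0.211, 0.249 and 0.204 at exon 2 in WT and 0.386, 0.263 and 0.302 in MT, a difference of 0.0957. The lowest MT library stood just above the highest WT library. PBRM1, a subunit of the PBAF chromatin remodeler, had 0.869, 0.784 and 0.808 in WT and 0.893, 0.895 and 0.931 in MT at a tandem site of a 5′ UTR exon. RIOX2, a ribosomal oxygenase, had 0.683, 0.718 and 0.713 at exon 7 in WT and 0.816, 0.772 and 0.729 in MT. In both, MT was above WT in each library, by 0.086 and 0.0677.

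The 5 lowest differences by the same rule were in SUN1, IGF1R, TJAP1, USP48 and RAP1GDS1, and these did not pass the test either (limma adjusted p = 0.856 for each). SUN1, a protein of the inner nuclear membrane that links the nucleus to the cytoskeleton, had 0.715, 0.743 and 0.846 at exon 9 in WT and 0.674, 0.585 and 0.625 in MT, a difference of −0.140. IGF1R, the receptor of insulin-like growth factor 1, had 0.676, 0.670 and 0.702 at exon 14 in WT and 0.535, 0.566 and 0.555 in MT. The libraries of IGF1R were tight within each group and well apart between groups, with means of 0.683 ± 0.017 and 0.552 ± 0.016 (SD, n = 3 each). Its unadjusted p was 0.0496 by limma and 0.0106 by the quasi-binomial test, with adjusted values of 0.856 and 0.616. TJAP1, a protein found at tight junctions, had 0.538, 0.433 and 0.515 in WT and 0.301, 0.391 and 0.425 in MT at exon 4, in its 5′ UTR. Each MT library was below each WT library there, with a mean difference of −0.123.

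USP48, a deubiquitinase, had 0.870, 0.816 and 0.856 at exon 14 in WT and 0.720, 0.801 and 0.810 in MT. RAP1GDS1, an exchange factor for small GTPases, had 0.918, 0.950 and 0.933 at exon 12 in WT and 0.907, 0.836 and 0.873 in MT. The MT libraries were lower in both, with mean differences of −0.0703 and −0.0617, and the nearest libraries of the groups were close to each other.

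**Figure D4:**
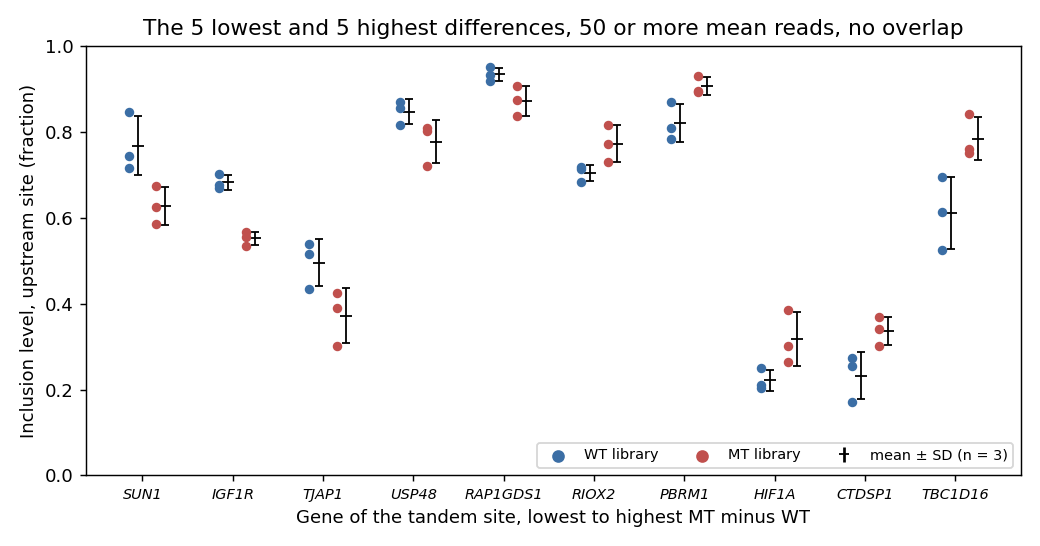
Inclusion level in each WT (blue) and MT (red) library at the 5 lowest and 5 highest differences among tandem sites with at least 50 mean reads and no overlap; black marks are the mean ± SD of 3 libraries. The groups separate at each gene by the choice of genes, IGF1R had SDs of 0.017 in WT and 0.016 in MT, and none passed the limma test after adjustment.

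The 8 members at an unadjusted p under 0.05 were TBC1D16, HMBOX1, ZNF30, GOSR2, CARD8, CBLL1, C2CD2L and IGF1R, 5 higher and 3 lower in MT. They were named after their values were seen. The largest differences among the pairs were found at low depth. ZNF30, a zinc finger gene, had 0.303, 0.376 and 0.281 in WT and 0.695, 0.475 and 0.774 in MT at 16 mean reads, a difference of 0.328. HMBOX1, a homeobox gene, had 0.786, 0.662 and 0.770 in WT and 0.227, 0.610 and 0.515 in MT at 24.2 mean reads, a difference of −0.289. At both the MT libraries lay farther from each other than the WT libraries did.

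The 10 pairs with most reads gave the most exact levels, and most of them were used from 1 AG in WT and MT alike. PTMA, prothymosin alpha, with GAGGAG and 5839 mean reads, had 0.098, 0.110 and 0.107 in WT and 0.097, 0.102 and 0.104 in MT at exon 3. RPS16, another protein of the small ribosomal subunit, had 0.993 in each WT library and 0.998, 0.993 and 0.994 in MT. NAP1L1, a histone chaperone, with AAGGAG, had 0.985, 0.987 and 0.99 in WT and 0.988, 0.99 and 0.985 in MT. In each of these the groups overlapped and the means differed by 0.004 or less.

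MYL6, a myosin light chain, with GAGCAG, had 0.017, 0.033 and 0.029 in WT and 0.026, 0.037 and 0.023 in MT. PCBP2, which binds C-rich RNA, had 0.833, 0.828 and 0.803 in WT and 0.818, 0.827 and 0.805 in MT at exon 13. MYL6 used the downstream AG almost alone, PCBP2 used both, and the libraries of WT and MT overlapped at each. GNAS was the only one of the 10 pairs whose libraries did not overlap. PTMA, RPS16, RPS24, NAP1L1 and HNRNPC belong to genes with processed pseudogenes, and how reads that fit several places were counted is not given in the sources used here, so their levels are less certain than their read numbers imply.

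Tandem sites were also found in genes of the 3′ splice site machinery. From a list of 47 genes for 3′ splice site recognition, 4 had 6 pairs, with differences from −0.038 to 0.00733. Limma called 0 of these pairs and 0 had an unadjusted p under 0.05, beside 0.0311% and 4.47% of all events. Without overlap, 0 were higher and 1 lower in MT, beside 2.32% and 3.15% of all events. At 6 pairs a count of 0 carries little information. SF3B2, which sits beside SF3B1 in SF3b, had 3 of the 6. Its AAGCAG before exon 5 had 0.916, 0.929 and 0.916 in WT and 0.872, 0.892 and 0.883 in MT. The MT libraries were all lower, with a mean difference of −0.038 and SDs of 0.0075 and 0.010 (n = 3 each; limma adjusted p = 0.856), although AAG before CAG elsewhere had a median level of 0.358. The WT level of this site, 0.920, was the highest among all 68 events with those letters.

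The other sites of SF3B2 stayed within the spread of their libraries. TAGTAG before exon 7 had 0.922, 0.918 and 0.940 in WT and 0.925, 0.920 and 0.933 in MT, and CAGAAG before exon 20 had 0.996, 0.987 and 0.989 in WT and 0.994, 0.991 and 0.991 in MT. RBM39, a U2AF-related splicing factor, had 0.962, 0.964 and 0.992 in WT and 0.969, 0.992 and 0.979 in MT. RBM17, a splicing factor that acts at alternative 3′ sites, was at 0.994 or above in every library, and BUD31, a spliceosome protein, was between 0.959 and 1.0. All of these overlapped between groups, and SF3B1 itself had no member.

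From a list of 51 genes for R-loops and RNA binding, 7 had 8 pairs. Limma called 0 of these pairs and 0 had an unadjusted p under 0.05, beside 0.0311% and 4.47% of all events. Without overlap there were 0, beside 2.32% higher and 3.15% lower of all events. At 8 pairs a count of 0 carries little information. BRCA1, which acts in repair of DNA breaks, had TAGCAG before exon 7, with 0.777, 0.807 and 0.822 in WT and 0.832, 0.834 and 0.819 in MT, and AAGCAG before exon 13, with 0.786, 0.766 and 0.868 in WT and 0.749, 0.770 and 0.702 in MT. The mean differences were 0.0263 and −0.0663, neither passed the test, and libraries overlapped in both. SAFB, a scaffold attachment protein, had 0.343, 0.436 and 0.339 in WT and 0.367, 0.457 and 0.329 in MT, so the MT libraries spanned the WT libraries. ZC3H14, which binds poly(A), ranged from 0.544 to 0.645 in WT and from 0.562 to 0.642 in MT.

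SFPQ, a nuclear RNA-binding protein, had 0.678, 0.739 and 0.625 in WT and 0.676, 0.603 and 0.667 in MT. This site stood only in transcripts not typed as protein coding. The helicase DDX5, at a 5′ UTR exon, had 0.987, 0.957 and 0.976 in WT and 1.0, 0.947 and 0.862 in MT. HNRNPC, which binds U-tracts, and FANCI, of the Fanconi anemia pathway, were at 0.963 or above in every library. None of these 4 separated the groups. From a list of 7 genes known for tandem acceptors, IGF1R and BRCA1 are described above and PAX3 had 0.716, 0.513 and 0.557 in WT and 0.595, 0.578 and 0.589 in MT at 26.5 mean reads, which overlap.

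The same pair of AGs had another level when it was joined to another upstream exon. The table lists 29 pairs in more than 1 event, 65 events in all, because the upstream exon differed, and the WT level of a pair then ranged over a median of 0.15. Among the pairs reported here, 9 had at least 2 such events with 30 or more reads, a minimum set after the data were seen, and in 6 of the 9 all 6 libraries of one event stood apart from all 6 libraries of the other. Each of the 6 was a choice between the exon just upstream and the one before it, so that the exon between was kept or skipped. No test was made, since the genes were picked by these levels.

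In GNAS, reads from exon 2 that skipped exon 3 (upstream exon chr20:58895612-58895684) had upstream levels of 0.642, 0.660 and 0.713 in the WT and 0.705, 0.648 and 0.703 in MT, at 522 mean reads. Reads from exon 3 (chr20:58898941-58898985) had the levels of 0.149 to 0.192 given above. The upstream TG of GNAS was thus used by most reads that skipped exon 3 and by few that kept it, a mean difference of 0.502 over the 6 libraries. In PCBP2, reads from exon 12 had 0.803 to 0.833 and reads from exon 11 had 0.939 to 0.976. In these genes and in PAM, an enzyme that amidates peptides (0.246 to 0.509 with the exon and 0.540 to 0.847 without), the level was higher when the exon was skipped.

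The other 3 genes went the opposite way. In ATRX, a chromatin remodeler, reads from exon 6 had 0.790, 0.806 and 0.760 in WT and 0.633, 0.792 and 0.746 in MT, and reads from exon 5 had 0.430, 0.359 and 0.296 in WT and 0.473, 0.352 and 0.455 in MT. CHD3, another remodeler, had means over 6 libraries of 0.245 with the exon kept and 0.0485 with it skipped, and FOXM1, a transcription factor of the cell cycle, had 0.255 and 0.122. The level was lower without the exon in all 3. In ANKRD17, EEF1D and WDR45 the libraries of the events overlapped. Within each event of the 6 genes other than the GNAS event from exon 3, WT and MT libraries overlapped, as the plot of levels by upstream exon shows. Whether a read that crosses the tandem without reaching the upstream exon was counted in several events is not given in the sources used here.

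**Figure D5:**
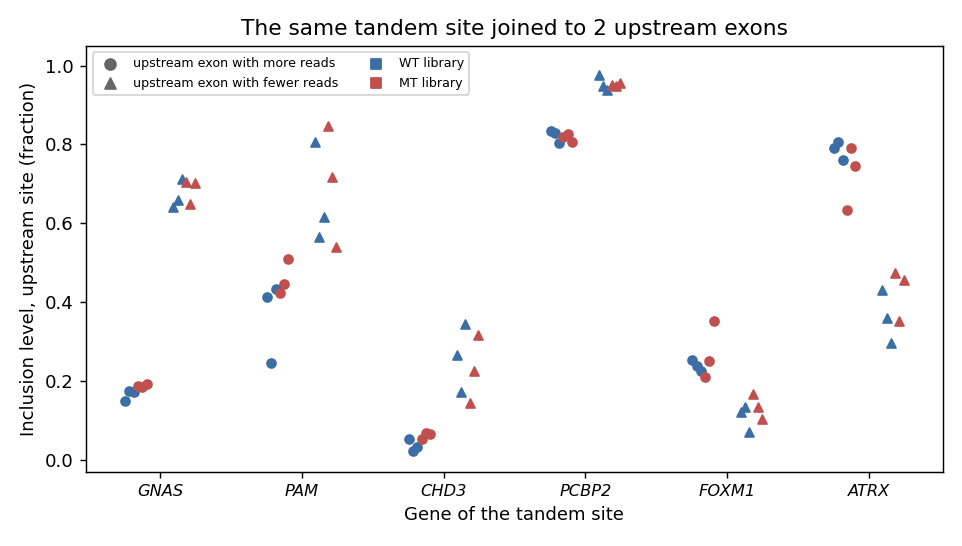
Inclusion level at the same tandem site in each library when joined to either of 2 upstream exons, for 6 genes whose libraries did not overlap between the events; circles are the event with more reads, triangles that with fewer, blue WT and red MT. The distance between circles and triangles, 0.502 on average in GNAS, exceeds the distance between WT and MT in each gene.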

How the data were processed

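The authors made stranded, paired-end RNA-Seq libraries of HEK293T cells (3 WT, 3 MT) and named the rMATS model with a level difference of 0.1 and FDR of 0.05. The submitters' processing notes name STAR, StringTie, BWA, GRCh38 and hg38, without versions. The deposited table gives each inclusion level as a fraction, each event's average junction reads as a signal without scaling, and lists of reads per library. The latter are damaged in events with many reads, so 82 of 648 members lacked usable read lists. The table also holds columns of the authors' own comparison, which were not used.

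Here, levels of all 83581 events with at least 10 mean reads and a level that varied were transformed by the arcsine of the square root and fitted with limma 3.58.1 (R 4.3.3; trend of the variance on reads, two-sided, Benjamini-Hochberg adjustment over all events). rMATS was not used here. An event was called at an adjusted p under 0.05 and a difference above 0.1. A quasi-binomial test used intact read lists whose level was recomputed within 0.0006. Letters and annotation came from hg38 and GENCODE 44, the build of the table; its starts, which count from 0, were raised by 1. Scripts were tested on simulated data. Other settings tried were read minimums, transforms, 1 event per pair and leaving out each library. Sites named were every called pair, the 10 with most reads, the 5 highest and 5 lowest differences without overlap at 50 or more reads, listed genes with 50 or more reads, and the deepest pair of each letter class. Members and gene lists were chosen with earlier results of these data known. Peak lists of 8 DRIP-seq libraries were not used. One gene that these rules name is not reported here.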

Additional observations from a re-analysis of the deposited data

How the results depend on the processing

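No tandem site was called under any of 13 alternatives, the quasi-binomial test among them. The lowest limma adjusted p over the members, 0.856 in the reported fit, was 0.142 with the logit of the level and 0.173 without the variance trend. The number at an unadjusted p under 0.05, 8 of 642 in the reported fit, was 31 of 642 with the logit of the level and 24 of 642 without the variance trend. It was 25 of 560 by the quasi-binomial test, 15 of 789 without a read minimum and 3 of 337 with at least 50 reads. With at least 50 reads, 20 of 337 members were higher (5.93%) and 12 lower (3.56%) in MT without overlap. Leaving out 1 library, which makes overlap rarer by construction, gave 63 to 76 higher (9.86% to 11.9%) and 45 to 54 lower (7.04% to 8.42%). Shares over all events are not given here for these settings, except 6.54% at an unadjusted p under 0.05 by the quasi-binomial test. Whether the other counts pass the background is thus not settled.

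With at least 50 reads the HAGHAG median was 0.728 in WT and 0.713 in MT, the GAGHAG median 0.045 and 0.0483, the HAGGAG median 0.988 in MT and the median of the remaining sites 0.112 in WT, against 0.105. With 1 event per pair of sites the HAGHAG median was 0.691 in WT, the HAGGAG median 0.991 in MT and the median of the remaining sites 0.0933 in WT. Leaving out 1 library gave 0.698 to 0.700 for HAGHAG in WT and 0.993 to 1.0 for HAGGAG in MT.

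Among 32 named sites, 13 changed sign in at least 1 fit without 1 library, among them DDX5, whose difference of −0.037 was 0.000167 without MT library 3, and none passed the limma or quasi-binomial threshold in any setting (lowest adjusted p = 0.351). Their differences then ran from −0.0095 to 0.007 in BUD31, −0.012 to 0.0285 in CNBP, −0.0688 to 0.000167 in DDX5, −0.0102 to 0.00283 in FANCI, −0.00233 to 0.00567 in MYL6, −0.000833 to 0.00167 in NAP1L1, −0.0138 to 0.00117 in PCBP2, −0.002 to 0.001 in RBM17, −0.0025 to 0.00417 in RPS24, −0.0247 to 0.0433 in SAFB, −0.0005 to 0.004 and −0.005 to 0.006 in the SF3B2 sites before exons 20 and 7, and −0.0282 to 0.0225 in ZC3H14. No paired analysis was possible because the level columns carry none of the replicate numbers of the labels. The 95% interval of a level in 1 library reached a median of 0.105 to either side, beside the difference of 0.1 that a call required. The simulated data checked the scripts over events of all types, and what size of difference could be detected at the tandem sites was not computed.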
